A study of Mus musculus with 4 samples.

Results

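A set of 42 interferon-induced genes was followed in mouse spleen cells exposed to a bacterial polysaccharide. They are the 42 genes, of 17519 in the deposited expression table, whose symbols stood on a set list of effectors induced by type I interferon and of interferon-induced GTPases, and all 42 were found. The cells were MHC class II positive (MHCII+) antigen presenting cells of adult C57Bl.6 mouse spleen, isolated with magnetic beads. The day 1 PSA group (3 libraries) had been stimulated over 24 h with polysaccharide A (PSA), a capsular sugar of the gut bacterium Bacteroides fragilis, at 50 µg/ml. The day 0 group (1 library) was freshly isolated and had no PSA. Cells cultured to day 1 with no PSA were not analysed here, so PSA and a day in culture cannot be told apart in any difference below. Separate mice or cultures are not stated for the 3 day 1 libraries, and the p-values therefore reflect library-to-library spread that may be technical.

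Interferons are secreted proteins that cells make when they sense nucleic acid or microbial products. Type I interferons signal through the receptor pair Ifnar1 and Ifnar2 and the kinases Jak1 and Tyk2 to a complex that holds Stat2 and Irf9 and binds the interferon-stimulated response element (ISRE) in target promoters. Interferon gamma signals through Ifngr1 and Ifngr2, and its target promoters are known for the gamma-activated site (GAS). The Ifit, Oas and Mx genes are classical targets of the first route, while the guanylate binding proteins (Gbp) and the immunity-related GTPases (Irg) are classical targets of the second, with much overlap between the 2 sets. Plasmacytoid dendritic cells of the spleen are known for high production of type I interferon.

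The promoters of the genes are shown first, because the ISRE is what most of these genes are known to share. RefSeq promoters (build GRCm38.p6) were matched for 30 of the 42 genes, which have 36 annotated starts. The motifs searched on both strands were the ISRE core, GAAANNGAA, and the GAS element, TTCNNNGAA, in the 250 bases before each start. An ISRE core stood in 17 of the 36 member promoters (47.2%), against 7.13% of 32851 promoters in all, and a GAS element in 9 of 36 (25%), against 7.02% in all. Of the Gbp and Irg genes 7 of 9 promoters held an ISRE core and 4 a GAS element, and of the Ifit, Oas and Mx genes 4 of 8 held an ISRE core and 2 a GAS element. The RefSeq start of Gbp5, which supplies 1 of those 7 and 1 of those 4, lies outside the Gbp5 position of the annotation used here, far before it. The windows below, read 5′ to 3′ on the strand of the gene, belong to genes that the results turn on, and the capitals mark the ISRE cores, overlapping cores being joined.
Ifit1, chr19:34640775-34640843, plus strand: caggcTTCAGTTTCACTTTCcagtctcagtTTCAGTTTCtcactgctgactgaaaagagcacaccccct
Ifit3, chr19:34583397-34583465, plus strand: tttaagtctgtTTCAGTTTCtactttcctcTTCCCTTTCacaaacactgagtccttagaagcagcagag
Oas1a, chr5:120907526-120907569, minus strand: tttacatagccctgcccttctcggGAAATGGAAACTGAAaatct
Oas3, chr5:120777690-120777758, minus strand: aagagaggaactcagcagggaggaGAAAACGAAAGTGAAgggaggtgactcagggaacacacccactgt
Gbp3, chr3:142559976-142560043, plus strand: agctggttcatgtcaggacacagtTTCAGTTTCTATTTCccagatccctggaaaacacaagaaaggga
Gbp7, chr3:142530254-142530322, plus strand: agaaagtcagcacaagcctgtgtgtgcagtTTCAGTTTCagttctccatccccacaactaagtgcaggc
Igtp, chr11:58199492-58199555, plus strand: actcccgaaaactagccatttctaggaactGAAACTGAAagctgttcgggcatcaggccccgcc
Irgm2, chr11:58214883-58214951, plus strand: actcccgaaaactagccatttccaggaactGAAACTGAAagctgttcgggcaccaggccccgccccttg
Isg15, chr4:156200846-156200914, minus strand: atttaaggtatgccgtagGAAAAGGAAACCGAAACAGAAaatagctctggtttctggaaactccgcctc

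Ifit1 and Isg15 each held 3 cores, in Isg15 as a single overlapping run. The Ifit3 window shows 2 of the 3 cores found there, since the third lay farther out, 155 bases before the start. The windows of Igtp and Irgm2, neighbours on chromosome 11, were identical at 62 of 64 bases. By direction of change, a core stood in 6 of 11 promoters of genes called higher at day 1, in 4 of 8 of genes called lower, and in 7 of 16 of genes with no call. In 1 member promoter, that of Bst2, a core overlapped a GAS element, against 40 of the 32851. A match is a run of letters, and binding was not measured.

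**Figure D1:**
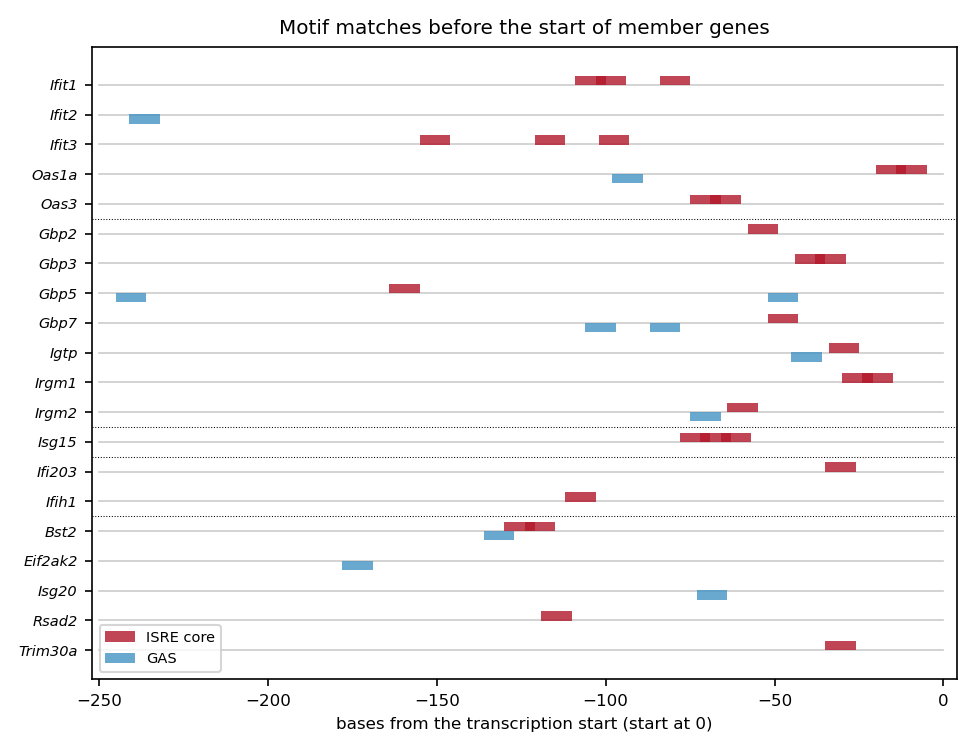
ISRE cores (red) and GAS elements (blue) in the 250 bases before the transcription start of the member genes that held a match, with the distance from the start in bases on the x axis and 1 gene per line. Overlapping cores appear as darker stretches, and the Bst2 promoter is the 1 member promoter in which a core overlapped a GAS element.

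Depth differed between the groups and sets the precision of what follows. Expression was deposited as FPKM, an abundance corrected for transcript length and library size. From the smallest FPKM steps, the number of fragments at day 1 (replicates 1 to 3) was 14.1, 16.0 and 21.8 times that at day 0. At day 0, 34 of the 42 genes rested on fewer than 10 estimated fragments and 9 were listed at 0. A 0 there is not proof of absence: 2 of 66 ribosomal protein genes with a mean of at least 100 FPKM at day 1 were also listed at 0 at day 0. MHC class II genes were high in all libraries, with H2-Ab1 at 5092, 4840 and 3434 FPKM at day 1 and 4529 FPKM at day 0. H2-Aa, H2-Eb1 and Cd74 were lower at day 0 than in every day 1 library. H2-Aa had 3797, 3431 and 2795 FPKM at day 1 and 2130 FPKM at day 0. H2-Eb1 had 1788, 1678 and 1521 FPKM at day 1 and 882 FPKM at day 0. Cd74 had 8316, 8399 and 7453 FPKM at day 1 and 2936 FPKM at day 0.

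Changes were tested with limma on log2(FPKM + 1) over the 13903 genes with at least 1 FPKM in a library, with Benjamini-Hochberg adjusted p-values over all of them. In what follows "rose" and "fell" mean an adjusted p under 0.05. Day 0, with its single library, was taken to vary as much as day 1 did, although its depth was far lower. The extra counting error at day 0 is not in the SEs or adjusted p-values, which are too small where day 0 fragments are few. Of the 42 genes 40 were tested: 13 rose, 10 fell and 17 had no call, while Ifi204 and Ifi44 did not reach 1 FPKM in any library. Among all genes tested, 35.0% rose, 19.0% fell and 54.0% did either, so the members' shares were near that background. With the median log2 change of all genes set to 0, 8 members rose and 13 fell. The filter was passed only at day 1 by 7 tested members (Oas1a, Oas2, Mx2, Igtp, Irgm2, Rsad2 and Xaf1) and only at day 0 by 1, Iigp1, and the direction of these was fixed by the filter. All 3 day 1 libraries lay above day 0 in 25 of the 42 genes and below it in 15, against 53.7% and 31.4% of all tested genes, and the groups overlapped in Gbp5 and Ifi44. Of the 13 genes that rose, 6 were listed at 0 at day 0. With genes at 0 set aside, 7 of 33 members rose, against 27.8% of all such genes, and 10 of 33 fell, against 26.3%. The median log2 change was 0.46 over all 42 members and 0.59 over all genes tested, and without genes at 0 it was 0.21 over 33 members and 0.02 over 10028 genes.

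The authors' deposited table gives its own log2 fold change and false discovery rate, from a test its headers do not name. With a false discovery rate under 0.05, the authors' deposited table calls 0 members higher at day 1, where it calls 0.28% of all genes higher, and at an unadjusted p under 0.05 it also has 0 members higher. Called lower in the authors' deposited table are 2 members, Ifit1 and Ifitm3, and 2.53% of all genes. The median fold of the 42 members in the authors' deposited table was -0.40 on the log2 scale, against 0.04 over the 13903 genes tested. Of the 42 members 31 lay below 0. In 15 members the sign in the authors' deposited table differed from that of the FPKM values. The shares of all genes below 0 and with a differing sign were not counted. The 15 members included 4 of the 13 genes that rose, Oas1a, Mx2, Bst2 and Trim30a, and 0 of the 10 that fell. Among the 9 members with a day 0 value of 0, log2 folds in the authors' deposited table ran between -1.61 and 0.32.

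**Figure D2:**
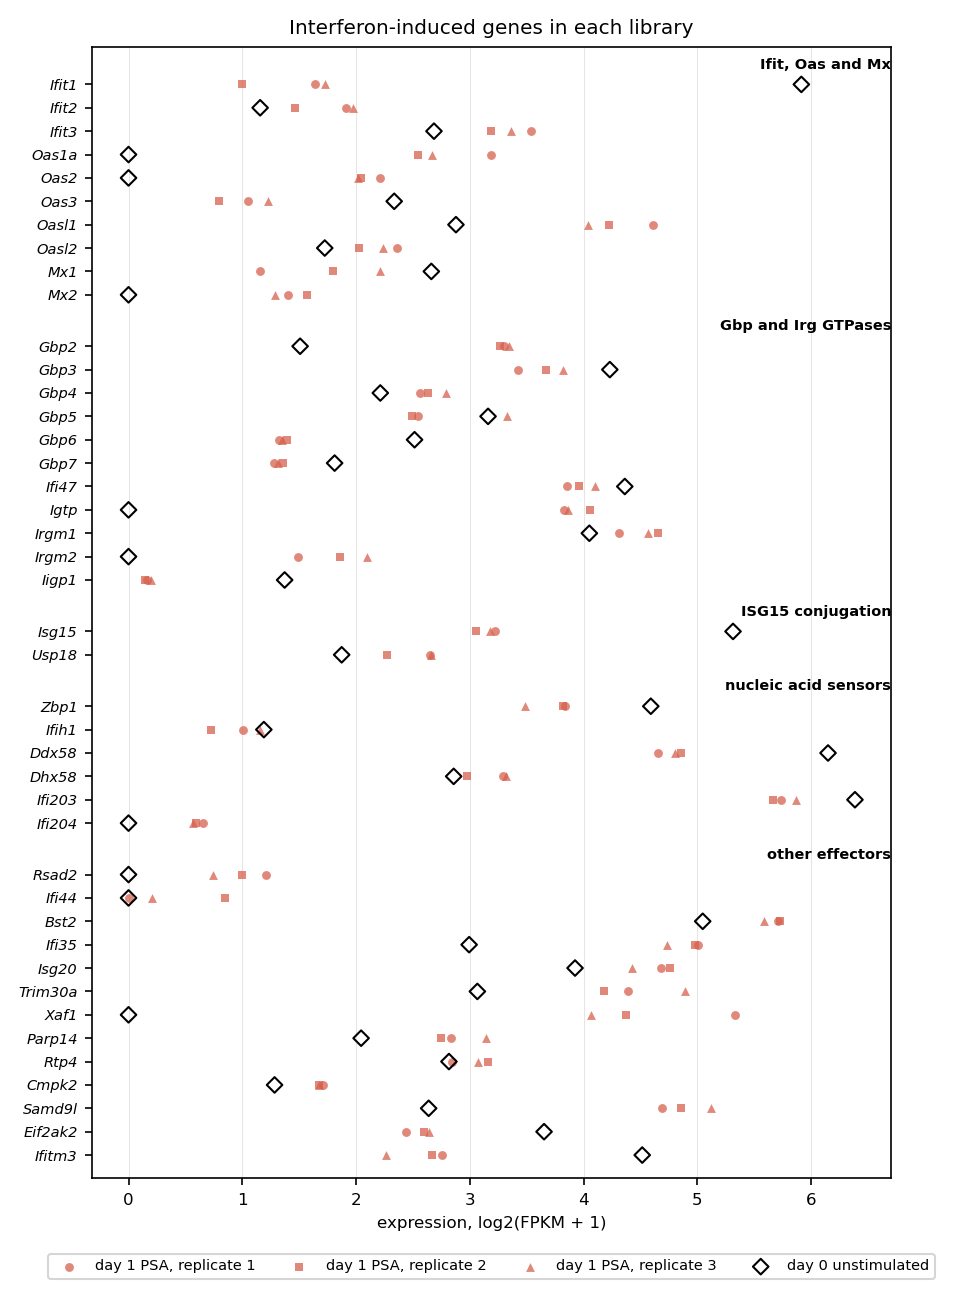
Expression of the 42 genes in each library, as log2(FPKM + 1) on the x axis, grouped by role, with filled symbols for the 3 day 1 PSA libraries and open diamonds for the day 0 library. Ifit1, Isg15, Ddx58 and Ifitm3 lie well to the right at day 0, while 9 genes have their day 0 diamond at 0.

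The Ifit genes encode tetratricopeptide repeat proteins, of which Ifit1 binds viral RNA with a foreign cap. Ifit1 (ENSMUSG00000034459, chromosome 19, 34640871 to 34650009) had 2.12, 0.994 and 2.31 FPKM in the day 1 libraries, against 59.3 FPKM at day 0. All 3 day 1 libraries lay far below day 0, a mean 32.8-fold lower. Ifit1 fell by 4.46 ± 0.38 on the log2 scale (SE; limma, adjusted p = 0.00603), and in the authors' deposited table its log2 fold was -4.30 with a false discovery rate of 0.000612. At day 0 depth its day 1 mean would have given 1.02 fragments, against 33.5 estimated in the day 0 library. Less RNA per cell and fewer cells that make it cannot be told apart in bulk samples, here or below.

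The other 2 Ifit members had no call. Ifit2, known in human to bind AU-rich RNA, had 2.76, 1.76 and 2.94 FPKM at day 1, against 1.23 FPKM at day 0, a log2 change of 0.63 ± 0.29 (adjusted p = 0.159). Ifit3, known in human as a partner of Ifit1, had 10.6, 8.09 and 9.31 FPKM at day 1, against 5.43 FPKM at day 0, a log2 change of 0.68 ± 0.20 (adjusted p = 0.0634). Each lay above day 0 in 3 of 3 libraries without passing the test, and their day 0 values rested on 1.03 and 2.01 estimated fragments. Among the 3 members, all within 34550694 to 34650009 of chromosome 19, Ifit1 had the highest FPKM at day 0 and the lowest mean FPKM at day 1. Of the 30-base stretches of Ifit3 transcripts, 62.5% also occur in its copy Ifit3b, so reads between those 2 may be split.

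The 2′-5′ oligoadenylate synthetases (Oas) sense double-stranded RNA and make the messenger that activates RNase L. Oas1a had 8.13, 4.84 and 5.36 FPKM at day 1 and was listed at 0 at day 0. Oas2 had 3.63, 3.13 and 3.04 FPKM at day 1 and was also listed at 0 at day 0. Both rose (limma, adjusted p = 0.0103 for Oas1a and 0.00587 for Oas2), and no fold is given because of the 0. At day 0 depth the day 1 means would have given 2.45 fragments of Oas1a and 3.09 of Oas2, both within the 95% Poisson interval of a count of 0, which covers counting error only. In the authors' deposited table their log2 folds were -0.83 and 0.20. The sequence of Oas1a is 69.3% shared with Oas1g at the level of 30-base stretches.

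Oas3, the long family member that lies between Oas2 and Oas1a on chromosome 5, went the other way. It had 1.07, 0.731 and 1.33 FPKM at day 1, against 4.05 FPKM at day 0. Every day 1 library was below day 0, and Oas3 fell by 1.31 ± 0.25 (limma, adjusted p = 0.0245), 3.87-fold in the mean. The windows printed above for Oas3 and Oas1a both hold 2 overlapping cores.

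Oasl1 and Oasl2 are Oas-like proteins, of which Oasl1 is known in mouse as a brake on Irf7 translation. Oasl1 had 23.4, 17.7 and 15.5 FPKM at day 1, against 6.35 FPKM at day 0. It rose by 1.41 ± 0.28 (limma, adjusted p = 0.0278), 2.97-fold in the mean, and its day 1 mean lay above the day 0 counting interval of 1.97 to 18.5 FPKM. Oasl2 had 4.12, 3.07 and 3.72 FPKM at day 1, against 2.31 FPKM at day 0, with no call (adjusted p = 0.137). By mean FPKM, Oasl1 was the most highly expressed gene of the Ifit, Oas and Mx class at day 1.

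Mx1 and Mx2 are dynamin-like GTPases that block virus replication. Mx1 had 1.23, 2.47 and 3.64 FPKM at day 1, against 5.33 FPKM at day 0. All 3 lay below day 0, but with a spread that left no call (log2 change -0.94 ± 0.50, limma, adjusted p = 0.201). With values raised to 3 day 0 fragments, Mx1 was called lower (-0.42, limma, adjusted p = 0.00254). There all 3 day 1 values became equal, so that call does not reflect the spread between the day 1 libraries. Mx2 had 1.65, 1.97 and 1.44 FPKM at day 1 and was listed at 0 at day 0; it rose (limma, adjusted p = 0.0136), while its log2 fold in the authors' deposited table was -0.36. In laboratory strains of the C57 background both Mx genes are known to carry defects, so these values are RNA levels and not a measure of function.

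**Figure D3:**
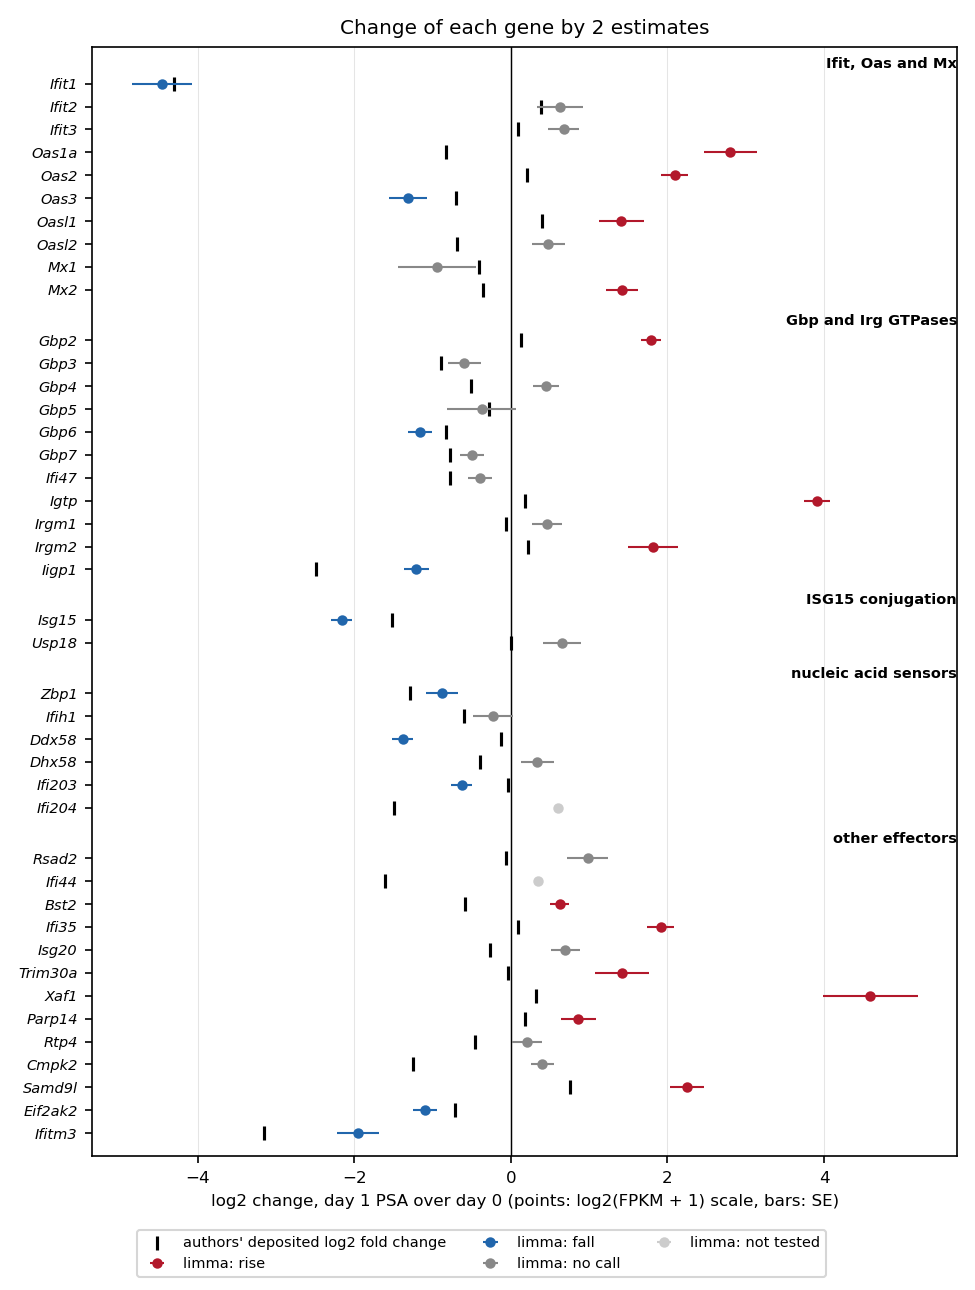
Log2 change of each of the 42 genes, day 1 PSA over day 0, on the x axis, with points and SE bars from the limma fit on log2(FPKM + 1) and black ticks from the authors' deposited table. Points right of 0 for Igtp, Oas1a and Xaf1 stand against day 0 values of 0, and the ticks for those genes lie near or below 0, whereas point and tick of Ifit1 nearly coincide.

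The Gbp proteins are large GTPases that coat and break the vacuoles of intracellular microbes. Gbp2 (chromosome 3, 142620602 to 142638008) had 8.83, 8.63 and 9.13 FPKM at day 1, against 1.84 FPKM at day 0. The 3 day 1 libraries lay close together and all above day 0, and Gbp2 rose by 1.79 ± 0.13 (limma, adjusted p = 0.00478), 4.80-fold in the mean. Its day 0 value rested on 0.986 estimated fragments, and the day 1 mean lay inside the day 0 counting interval of 0.0474 to 10.4 FPKM. In the authors' deposited table its log2 fold was 0.13.

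The 3 other Gbp genes of that chromosome 3 cluster had no call. Gbp3 had 9.75, 11.7 and 13.1 FPKM at day 1, against 17.8 FPKM at day 0 (log2 change -0.59 ± 0.21, adjusted p = 0.0943). Gbp5, which is known in human and mouse macrophages for a part in inflammasome assembly, had 4.85, 4.62 and 9.04 FPKM at day 1, against 7.94 FPKM at day 0 (adjusted p = 0.512). Gbp7 had 1.42, 1.56 and 1.49 FPKM at day 1, against 2.51 FPKM at day 0 (log2 change -0.50 ± 0.15, adjusted p = 0.0713). Gbp3 and Gbp7 were below day 0 in 3 of 3 libraries, while in Gbp5 the groups overlapped, replicate 3 alone lying above day 0. With the median of all genes set to 0, Gbp3 (-1.19, adjusted p = 0.0234) and Gbp7 (-1.09, adjusted p = 0.0148) were called lower, and Gbp7 also with genes at 0 left out (adjusted p = 0.0205).

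On chromosome 5, Gbp4 had 4.90, 5.22 and 5.93 FPKM at day 1, against 3.64 FPKM at day 0, with no call (adjusted p = 0.105). Gbp6 had 1.50, 1.63 and 1.55 FPKM at day 1, against 4.71 FPKM at day 0. Gbp6 fell by 1.16 ± 0.15 (limma, adjusted p = 0.0117), 3.02-fold in the mean, with a day 1 mean still inside the day 0 counting interval of 1.19 to 11.2 FPKM. Every 30-base stretch of its transcripts also occurs in other annotated gene entries, 95.8% of them in another entry that is also named Gbp6. Of its exon bases 1792 overlap Gbp10 and 1726 overlap another entry named Gbp6, so the value of Gbp6 is uncertain.

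The Irg proteins control the vacuoles of intracellular parasites and bacteria, Irgm1, Irgm2 and Igtp (also called Irgm3) as regulators of the others. Igtp had 13.2, 15.6 and 13.5 FPKM at day 1 and was listed at 0 at day 0. It rose (limma, adjusted p = 0.00323), and its day 1 mean of 14.1 ± 1.33 FPKM (SD, n = 3) lay above the upper end of the day 0 counting interval, 8.59 FPKM. Its log2 fold in the authors' deposited table was 0.18. Irgm2, whose promoter window nearly repeats that of Igtp, had 1.81, 2.64 and 3.27 FPKM at day 1 and was listed at 0 at day 0; it rose too (limma, adjusted p = 0.0206). The 2 genes share 162 exon bases on the same strand, so reads there may have been credited to either.

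Irgm1, with the highest mean FPKM of the class at day 1, had 18.9, 24.2 and 22.7 FPKM at day 1, against 15.6 FPKM at day 0, with no call (log2 change 0.46 ± 0.19, adjusted p = 0.124). Ifi47, an Irg GTPase also known as Irg47, had 13.5, 14.5 and 16.2 FPKM at day 1, against 19.6 FPKM at day 0, with no call (log2 change -0.39 ± 0.15, adjusted p = 0.114). These 2 are among the better measured members, with 19.2 and 10.3 estimated fragments at day 0, and on the deposited scale their mean folds were at most 1.41. With the median of all genes set to 0, Ifi47 was called lower (-0.99, adjusted p = 0.0179), and Irgm1 had a log2 change of -0.13 with no call. Iigp1, an effector that loads onto the vacuole of Toxoplasma, had 0.116, 0.103 and 0.145 FPKM at day 1, against 1.59 FPKM at day 0. It fell by 1.21 ± 0.16 (limma, adjusted p = 0.0124), its day 0 value resting on 1.96 estimated fragments.

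The Ifit, Oas and Mx class and the Gbp and Irg class were counted side by side, against 35.0% of all genes tested that rose and 19.0% that fell. In the 10 Ifit, Oas and Mx genes 4 rose, 3 of them listed at 0 at day 0, and 2 fell. In the 11 Gbp and Irg genes 3 rose, 2 of them listed at 0 at day 0, and 2 fell. With the median of all genes set to 0, 3 rose and 2 fell in the first class, and 2 rose and 5 fell in the second. The median log2 change was 0.65 in the first class and -0.37 in the second, against 0.59 over all genes tested, a difference of 1.02 between the classes. Relative to that median of all genes, the class medians were 0.06 and -0.97. With every value raised to at least the FPKM of 3 day 0 fragments the difference was -0.019, and in the authors' deposited table, with medians of -0.38 and -0.50, it was 0.12. It was 0.61 with a mean of at least 1 FPKM as the filter. The difference between the classes was not tested.

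The summed FPKM of each class was also compared. The Ifit, Oas and Mx genes summed to 58.7, 44.8 and 48.6 FPKM at day 1, against 84.0 FPKM at day 0, and the Gbp and Irg genes to 78.7, 90.5 and 96.1 FPKM at day 1, against 75.2 FPKM at day 0. The ratio of the first sum to the second was 0.746, 0.495 and 0.505 at day 1, against 1.12 at day 0. Ifit1 alone made up 3.61%, 2.22% and 4.76% of the first sum at day 1, against 70.6% at day 0. Without Ifit1, an exclusion chosen after its value was seen, the ratio was 0.719, 0.484 and 0.481 at day 1, against 0.329 at day 0, so the direction of the summed ratio rested on that gene.

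**Figure D4:**
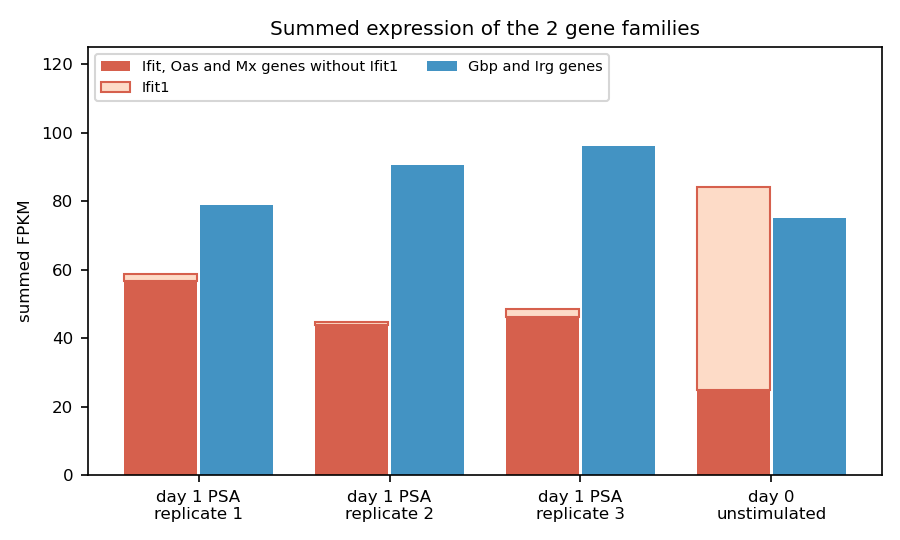
Summed FPKM (y axis) of the 10 Ifit, Oas and Mx genes, with Ifit1 stacked as the pale part, beside that of the 11 Gbp and Irg genes, in the 3 day 1 PSA libraries and the day 0 library. The pale part makes up at most 4.76% of the Ifit, Oas and Mx bar at day 1 and 70.6% of it at day 0.

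Within the day 1 libraries the spread of each class can be described. Among genes with a day 1 mean of at least 1 FPKM, the median coefficient of variation over the 3 libraries was 23.6% in 10 Ifit, Oas and Mx genes and 9.64% in 10 Gbp and Irg genes. It was 18.5% in the 10278 genes within the range of day 1 means of all such members, a range not matched to each class. Replicate 2 was the lowest of the 3 libraries in 6 of 10 Ifit, Oas and Mx genes. Replicate 1 was the lowest in 8 of 10 Gbp and Irg genes. How often each replicate was the lowest over all genes was not counted, so an offset of a whole library cannot be told apart from a trait of a class. The difference in spread was not tested.

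Isg15 is a ubiquitin-like protein that is joined to other proteins after interferon exposure, and Usp18 removes it and also dampens the type I receptor. Isg15 (ENSMUSG00000035692, chromosome 4, 156199424 to 156200818) had 8.33, 7.32 and 8.06 FPKM at day 1, against 38.8 FPKM at day 0. The day 1 libraries were tightly grouped and all below day 0, and Isg15 fell by 2.16 ± 0.13 (limma, adjusted p = 0.00413), 4.91-fold in the mean. Its day 0 value rested on 6.23 estimated fragments, with a counting interval of 13.7 to 81.4 FPKM that lay above the day 1 mean. The authors' deposited table gives a log2 fold of -1.52 with a false discovery rate of 0.42. Usp18 had 5.29, 3.84 and 5.33 FPKM at day 1, against 2.67 FPKM at day 0, with no call (log2 change 0.66 ± 0.24, adjusted p = 0.1).

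Of the 5 tested of 6 nucleic acid sensors 3 fell and 0 rose by limma, against 19.0% and 35.0% of all genes tested, and 0 rose at an unadjusted p under 0.05 either there or in the authors' deposited table. Ddx58 (RIG-I, a cytosolic RNA sensor) had 24.2, 27.9 and 26.9 FPKM at day 1, against 70.0 FPKM at day 0. It fell by 1.38 ± 0.13 (limma, adjusted p = 0.00727), 2.66-fold in the mean, and with 105 estimated fragments it was among the best measured members at day 0. The authors' deposited table nevertheless gives it a log2 fold of -0.12. Ifi203, a DNA-binding HIN-200 protein, was the most highly expressed member at day 0 by FPKM, with 52.4, 49.7 and 57.4 FPKM at day 1, against 82.7 FPKM at day 0. Ifi203 fell by 0.63 ± 0.13 (limma, adjusted p = 0.0311), 1.55-fold in the mean, and 22.5% of its 30-base stretches occur in other genes.

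Zbp1, a sensor of Z-form nucleic acid that can start necroptosis, had 13.3, 13.1 and 10.2 FPKM at day 1, against 23.1 FPKM at day 0. It fell by 0.88 ± 0.21 (limma, adjusted p = 0.04), with a log2 fold of -1.29 in the authors' deposited table. For the 2 other RIG-I-like receptors there was no call. Ifih1 (MDA5) had 1.00, 0.648 and 1.23 FPKM at day 1, against 1.28 FPKM at day 0 (adjusted p = 0.483). Dhx58 (LGP2) had 8.81, 6.84 and 8.99 FPKM at day 1, against 6.25 FPKM at day 0 (adjusted p = 0.26). Ifi204 had 0.571, 0.507 and 0.481 FPKM at day 1, was listed at 0 at day 0 and was not tested.

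Of the remaining 13 effectors 12 were tested, of which 6 rose and 2 fell, against 35.0% and 19.0% of all genes tested. With the median of all genes set to 0, the rises of Bst2, Trim30a and Parp14 were lost. Samd9l, a large cytosolic protein that restricts virus translation, had 24.9, 28.1 and 33.7 FPKM at day 1, against 5.23 FPKM at day 0. Samd9l rose by 2.25 ± 0.22 (limma, adjusted p = 0.00725), 5.53-fold in the mean. Its day 1 mean would have given 33.3 fragments at day 0 depth, where 6.02 were estimated, and its log2 fold of 0.75 was the highest of the 13 rises in the authors' deposited table, without a call there. Ifi35, an interferon-induced leucine zipper protein, had 31.2, 30.6 and 25.6 FPKM at day 1, against 6.97 FPKM at day 0. It rose by 1.92 ± 0.17 (limma, adjusted p = 0.00637), 4.19-fold in the mean, and 290 of its exon bases lie opposite the antisense gene Gm11626.

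Xaf1, a partner of the apoptosis inhibitor XIAP, had 39.2, 19.8 and 15.7 FPKM at day 1 and was listed at 0 at day 0. Replicate 1 was about as high as the other 2 together. Xaf1 rose (limma, adjusted p = 0.0121), and its day 1 mean of 24.9 FPKM lay above the upper end of the day 0 counting interval, 3.70 FPKM. The authors' deposited table gives it a log2 fold of 0.32. Trim30a, a mouse regulator of Toll-like receptor signalling, had 20.0, 17.1 and 28.6 FPKM at day 1, against 7.38 FPKM at day 0, and rose by 1.42 ± 0.34 (limma, adjusted p = 0.042). Parp14, an ADP-ribosyltransferase, had 6.13, 5.73 and 7.81 FPKM at day 1, against 3.13 FPKM at day 0, and rose by 0.86 ± 0.22 (limma, adjusted p = 0.0492). Bst2 (tetherin), which holds budding virions at the cell surface and also marks plasmacytoid dendritic cells in mouse, had 51.3, 51.8 and 46.9 FPKM at day 1, against 32.1 FPKM at day 0. It rose by 0.62 ± 0.12 (limma, adjusted p = 0.0247), close to the median of 0.59 over all genes, and had a log2 change of 0.03 (adjusted p = 0.863) with that median set to 0. Its log2 fold in the authors' deposited table was -0.58.

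Ifitm3, a membrane protein that blocks virus fusion, had 5.76, 5.34 and 3.81 FPKM at day 1, against 21.9 FPKM at day 0. All 3 day 1 libraries were below day 0, and Ifitm3 fell by 1.95 ± 0.27 (limma, adjusted p = 0.0127), 4.40-fold in the mean. In the authors' deposited table its log2 fold was -3.15, with a false discovery rate of 0.00018. The day 0 value rested on 3.15 estimated fragments of a short transcript, with an interval of 4.30 to 60.9 FPKM that held the day 1 mean, and with values raised to 3 day 0 fragments the log2 change was -0.067 with no call (adjusted p = 0.188). Eif2ak2 (PKR), which stops translation on sensing double-stranded RNA, had 4.41, 5.05 and 5.23 FPKM at day 1, against 11.6 FPKM at day 0. It fell by 1.10 ± 0.16 (limma, adjusted p = 0.0142), 2.36-fold in the mean.

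Of the other effectors 4 had no call and 1 was not tested. Isg20, an exonuclease, had 24.6, 26.1 and 20.5 FPKM at day 1, against 14.2 FPKM at day 0 (log2 change 0.70 ± 0.19, adjusted p = 0.0518). Rsad2 (viperin) had 1.31, 1.00 and 0.673 FPKM at day 1 and was listed at 0 at day 0 (adjusted p = 0.0521). Both lay above day 0 in 3 of 3 libraries, and with a pseudocount of 0.1 both were called higher (adjusted p = 0.0498 for Isg20 and 0.0154 for Rsad2). Rtp4 had 6.18, 7.92 and 7.39 FPKM at day 1, against 6.05 FPKM at day 0 (adjusted p = 0.41), and Cmpk2, a mitochondrial nucleotide kinase that lies beside Rsad2, had 2.27, 2.19 and 2.19 FPKM at day 1, against 1.44 FPKM at day 0 (adjusted p = 0.103, or 0.0332 with genes at 0 left out). Ifi44 was listed at 0 in day 1 replicate 1 and at day 0, and had 0.802 and 0.151 FPKM in day 1 replicates 2 and 3.

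The estimated fragment numbers were used to ask which of these differences exceed counting error at day 0. For genes listed at 0 the interval takes the day 0 count to be 0. That count was not given, and in the authors' deposited table the log2 folds of Igtp and Xaf1 were 0.18 and 0.32. The day 1 mean lay above the 95% interval of the day 0 value in 6 of 42 members, against 26.1% of all tested genes, and below it in 8, against 19.9%. The 6 above were Oasl1, Igtp, Ifi35, Trim30a, Xaf1 and Samd9l, all of which rose. The 8 below were Ifit1, Oas3, Iigp1, Isg15, Zbp1, Ddx58, Ifi203 and Eif2ak2, all of which fell. In the other 28 members, the rises of Gbp2, Oas1a, Oas2, Mx2, Irgm2, Bst2 and Parp14 and the falls of Gbp6 and Ifitm3 among them, the day 1 mean was within what counting error at day 0 allows. The interval leaves out any variation between mice or preparations at day 0.

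Calls were also read without each day 1 library in turn, which leaves 1 residual degree of freedom. Without replicate 2, 14 of the 23 calls were lost, at adjusted p between 0.0541 and 0.129: the rises of Oasl1, Mx2, Irgm2, Bst2, Trim30a, Xaf1 and Parp14, and the falls of Oas3, Gbp6, Iigp1, Zbp1, Ifi203, Eif2ak2 and Ifitm3. Without replicate 1, Oas3, Bst2, Zbp1, Ifi203, Parp14 and Trim30a lost theirs, at adjusted p between 0.072 and 0.108. Without replicate 3, Iigp1, Oasl1, Irgm2 and Parp14 lost theirs, at adjusted p between 0.0502 and 0.0556. Directions were as with all libraries, and the log2 changes of the lost calls were 0.866 to 1.11 times those with all libraries. The rises of Oas1a and Oas2 held without each library but not with values raised to 3 day 0 fragments, where adjusted p was 0.689 and 0.667. Ifit1, Isg15 and Ddx58 fell, and Gbp2, Igtp, Ifi35 and Samd9l rose, under every limma alternative in which they were tested. Igtp, at 0 at day 0, could only rise and was not in the fit with such genes left out. With values raised to 3 day 0 fragments, all day 1 values of Ifit1 became equal, as did those of Isg15. Their calls there do not reflect the spread between the day 1 libraries. The day 0 values of Gbp2, Igtp and Ifi35 were raised in that fit, so only a rise could be called there. All of these fits share the day 0 library, so none could show how far another day 0 library would differ. With the median of all genes set to 0, Oasl1 (0.82, adjusted p = 0.0936) and Irgm2 (1.22, adjusted p = 0.0514) also lost their calls.

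**Figure D5:**
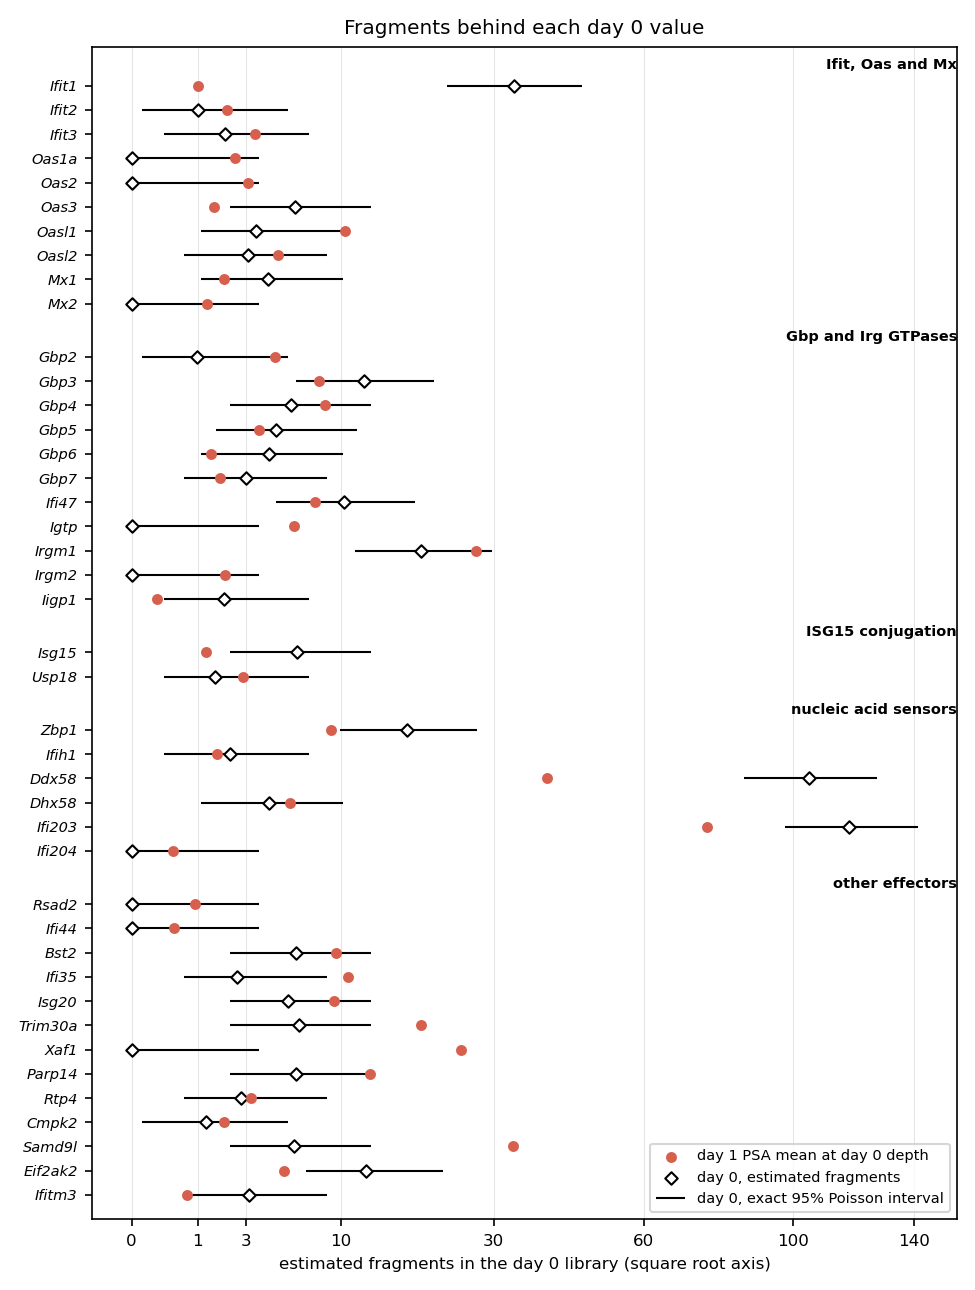
Estimated fragments behind each day 0 value (open diamonds) with the exact 95% Poisson interval (lines), and the number that the day 1 PSA mean would give at day 0 depth (filled circles), on a square root x axis, for the 42 genes. Filled circles lie right of the line in 6 genes and left of it in 8.

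Genes upstream in the pathway were read from lists of other interferon genes. Of all genes tested, 35.0% rose and 19.0% fell. Of the interferon genes themselves only Ifng was in the table among 21 entries, and the others were not analysed here. Ifng had 1.97, 2.98 and 1.62 FPKM at day 1 and was listed at 0 at day 0. It rose (limma, adjusted p = 0.0258), with a log2 fold of -0.18 in the authors' deposited table. Because Ifng passed the filter only at day 1, only a rise could be called. Its day 1 mean would have given 0.60 fragments at day 0 depth and lay inside the day 0 counting interval, whose upper end was 13.4 FPKM. Of 12 receptor and JAK-STAT genes 7 rose and 0 fell by limma, with 0 lower also at an unadjusted p under 0.05 and in the authors' deposited table. The median log2 change over the list was 0.84, against 0.59 over all genes tested. Ifnar1 had 22.1 ± 1.69 FPKM at day 1 (SD, n = 3) and 3.49 FPKM at day 0, Tyk2 20.0 ± 3.30 and 3.02 FPKM, and Stat2 20.3 ± 1.44 and 7.58 FPKM. Of 7 tested interferon regulatory factors other than Irf9, 5 rose and 0 fell by limma, with 1 lower at an unadjusted p under 0.05 and 0 in the authors' deposited table. Irf7 rose, with 25.1 ± 7.02 FPKM at day 1 (SD, n = 3) and 6.97 FPKM at day 0.

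Negative regulators and sensing adaptors moved in both directions, as did all genes tested, of which 35.0% rose and 19.0% fell. Socs3, an inhibitor of JAK signalling, had 1.48 ± 0.455 FPKM at day 1 (SD, n = 3) and 11.0 FPKM at day 0, and fell (limma, adjusted p = 0.0099), also in the authors' deposited table. Of the 6 negative regulators 1 rose and 2 fell. Of 7 sensing adaptors and kinases 4 rose, among them Tbk1 with 20.8 ± 2.44 FPKM at day 1 and 1.54 FPKM at day 0, and 1 fell, Traf3 with 5.88 ± 0.843 FPKM at day 1 and 31.5 FPKM at day 0 (SD, n = 3 each at day 1).

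Further genes of the same families were counted in the same way, beside 35.0% of all genes tested that rose and 19.0% that fell. Of 34 tested further genes induced by type I interferon, 17 rose, 8 of them listed at 0 at day 0, and 0 fell by limma, with 1 lower at an unadjusted p under 0.05 both there and in the authors' deposited table. The median log2 change was 0.79 over the list and 0.46 without genes at 0, against 0.59 and 0.02 over all genes tested. The largest changes there were those of Ifitm2, Lgals3bp, Ifi213 and Ifitm1, all listed at 0 at day 0. Ifitm2 and Ifitm1 had means of 15.5 ± 2.21 and 12.9 ± 3.41 FPKM at day 1 (SD, n = 3), both inside the day 0 counting interval, whose upper ends were 26.5 and 15.9 FPKM. Of 9 tested further Gbp and Irg genes 2 rose and 3 fell, Gbp8 with 3.68 ± 0.265 FPKM at day 1 and 20.4 FPKM at day 0 and Gbp9 with 5.15 ± 1.24 FPKM at day 1 and 13.4 FPKM at day 0 (SD, n = 3 each at day 1). Of 11 tested interferon gamma targets in antigen processing 3 rose and 2 fell. Nlrc5, the activator of MHC class I genes, rose with 23.0 ± 6.03 FPKM at day 1 (SD, n = 3) and 2.77 FPKM at day 0. Over all 8 further pathway lists 40 of 86 genes tested rose and 8 fell, against 35.0% and 19.0% of all genes tested, or 23 and 14 with the median of all genes set to 0. The authors' deposited table calls 0 of them higher.

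Markers of several cell types moved with the groups, beside 35.0% of all genes tested that rose and 19.0% that fell. Of 8 B cell markers 5 rose and 0 fell, with 0 lower at an unadjusted p under 0.05 by limma or in the authors' deposited table, and with sums of 3305 to 3904 FPKM at day 1 and 1414 FPKM at day 0. Of 8 plasmacytoid dendritic cell markers 2 rose and 5 fell, with sums of 883 to 1044 FPKM at day 1 and 908 FPKM at day 0. Siglech, a defining marker of that cell, had 13.5 ± 2.68 FPKM at day 1 (SD, n = 3) and 222 FPKM at day 0, and fell (limma, adjusted p = 0.00445). Siglech was the called marker of that list with the largest change. The 2 that rose are not named here, and the sums include them. Of 12 macrophage and monocyte markers 3 rose and 8 fell, with sums of 146 to 154 FPKM at day 1 and 167 FPKM at day 0. C1qc, the called marker of that list with the largest change, had 0.579 ± 0.478 FPKM at day 1 (SD, n = 3) and 23.9 FPKM at day 0. The 3 that rose are not named here, and the sums include them.

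The other marker lists moved less evenly, beside the same 35.0% of all genes tested that rose and 19.0% that fell. Of 7 tested conventional dendritic cell markers 1 rose and 4 fell, with sums of 26.5 to 27.6 FPKM at day 1 and 45.1 FPKM at day 0; Xcr1 was listed at 0 in day 1 replicate 1 and Zbtb46 at day 0. Of 7 tested T and NK cell markers 2 rose and 2 fell, with sums of 97.4 to 121 FPKM at day 1 and 65.6 FPKM at day 0, and Trac and Ncr1 were listed at 0 at day 0. Of 6 tested neutrophil markers 4 rose, all listed at 0 at day 0, and 0 fell, with 0 lower at an unadjusted p under 0.05 by limma or in the authors' deposited table, and with sums of 38.1 to 57.0 FPKM at day 1 and 14.7 FPKM at day 0. Of the 3875 tested genes listed at 0 at day 0, 2079 rose. The part of the marker shifts in the interferon-induced genes was not tested.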

How the data were processed

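RNA of 4 libraries was sequenced on an Illumina HiSeq, per the labels' protocols, which also state that the 3′ adaptor was removed and short reads were left out. The tools named in the submitters' processing notes are cutadapt, TopHat 1.4.1, Cufflinks 2.2.1 and Cuffdiff, with genome build GRCm38.p6. FPKM values were made by the authors with Cufflinks, per the labels' protocols. Beside them the authors deposited, for day 1 against day 0, a log2 fold change, a log2 abundance and the p-value with its false discovery rate, and the headers do not name the test. Not given in the sources used here are strand handling, annotation release and what was done with reads that match several genes, so near-identical and antisense genes are uncertain.

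Changes were tested with limma 3.58.1 in R 4.3.3 (trend) on log2(FPKM + 1), a pseudocount of 1, for the 13903 genes that reached 1 FPKM in some library. P-values were adjusted by Benjamini-Hochberg, and 0.05 was the threshold. Residual degrees of freedom were 2. A log2 change is on that scale, on which low genes appear to change less than they do, and a fold is a ratio of mean FPKM. No scaling was added; the median of all genes tested lay at 0.59. The scripts were tested on simulated data.

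Depth came from the step that 1 fragment is worth in FPKM times length, over 1182 single-transcript protein-coding genes (GENCODE M21, GRCm38). Low values were whole numbers of fragments to within 0.1 in 65.2%, 68.9% and 68.0% of cases at day 1 and 62.1% at day 0, so fragment numbers are estimates and no count test was run. They use all annotated exons of a gene. Gene positions are from the same annotation, and shared sequence was counted in stretches of 30 bases of its transcripts.

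The members, classes and lists were chosen with earlier results of these data known, so no test over a list is given. Every member is named. Of each other pathway list up to 4 called genes with the largest change, and of each marker list up to 3, could be named with values; those given are a selection of these, and genes named for being listed at 0 were chosen after their values were seen. Psmb9 was left out because 2 rows carry the symbol. The alternatives tried were the pseudocount, the filter, scaling, genes at 0, a floor of 3 day 0 fragments, each day 1 library left out and the authors' deposited log2 fold changes.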

Additional observations from a re-analysis of the deposited data

How the results depend on the processing

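The calls of 7 of the 23 called members kept their side of the threshold under every limma alternative in which they were tested: the rises of Gbp2, Igtp, Ifi35 and Samd9l and the falls of Ifit1, Isg15 and Ddx58. Igtp passed the filter only at day 1, so it could only rise, and was not in the fit with genes at 0 at day 0 left out. With values raised to 3 day 0 fragments, the calls of Ifit1 and Isg15 rest on equal day 1 values and do not reflect library spread. For Gbp2, Igtp and Ifi35, whose day 0 values were raised, only a rise could be called there. The day 1 mean of Gbp2 lay inside its day 0 counting interval. Every alternative used the same day 0 library, so none could show how far another day 0 library would differ. Against 13 rising members, 8 rose with genes listed at 0 at day 0 left out, 8 with the median log2 change set to 0 and 6 with values raised to 3 day 0 fragments. For all genes, against 4869, the counts of rises were 2834, 3034 and 2836 under those 3 settings. With the median set to 0, 23 other pathway genes rose, against 40, and 14 fell, against 8. Leaving out each day 1 library gave 6 to 11 rising and 3 to 9 falling members, 2549 to 4050 rises and 1393 to 2122 falls over all genes, and 22 to 31 rises and 5 to 8 falls among other pathway genes. The lowest counts all came without replicate 2; with 2 day 1 libraries the fit has fewer degrees of freedom. The authors' deposited table gives 0 rises and 2 falls among members, 49 and 443 over all genes, and 0 and 1 among other pathway genes. The difference between class medians, 1.02, was 0.61 with a mean FPKM of at least 1, -0.019 with values raised to 3 day 0 fragments and 0.12 in the authors' deposited table, and 0.83 to 1.06 without each day 1 library. The cause was not tested.

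With the median set to 0, log2 changes turned negative for Oasl2 (-0.11), Gbp4 (-0.14), Irgm1 (-0.13), Dhx58 (-0.26), Rtp4 (-0.39) and Cmpk2 (-0.19), none of them called. In the authors' deposited table the sign was reversed, among tested members, for Oas1a (-0.83), Oasl2 (-0.68), Mx2 (-0.36), Gbp4 (-0.50), Irgm1 (-0.058), Usp18 (-0.0024), Dhx58 (-0.39), Rsad2 (-0.064), Bst2 (-0.58), Isg20 (-0.26), Trim30a (-0.037), Rtp4 (-0.45) and Cmpk2 (-1.24), and also for Ifi204 and Ifi44, which were not tested. Members outside the day 0 counting interval numbered 14, and 12, without Oasl1 and Iigp1, with the longest transcript as length. Promoters with an ISRE core numbered 17, and 12 in a window of 100 bases. No paired analysis was possible because day 0 has a single library. For the same reason no fit without it could be made, and depth at day 0 limits what can be read from members with few fragments.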
